A study of Mus musculus with 43 samples.

Results

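The transcripts described here are 10 genes that mark red blood cells and platelets, out of 21938 genes in a count table of mouse lung. They are given by name as known markers of these cells, and no limit on a measured value decides membership. The red blood cell genes are Alas2, Slc4a1, the alpha globins Hba-a1 and Hba-a2 and the adult beta globins Hbb-bs and Hbb-bt. The platelet genes are Ppbp, Pf4, Gp1bb and Gp9. Poly(A) RNA of the inferior lobe was sequenced in 43 libraries. They came from controls on vehicle (10 libraries), from bleomycin mice on the nintedanib vehicle (16) and from bleomycin mice on nintedanib (17). Bleomycin is a DNA-breaking drug that is used in rodents to bring about lung fibrosis. Nintedanib inhibits receptor tyrosine kinases for VEGF, FGF and PDGF and is a treatment for pulmonary fibrosis.

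No genotype is given for any group, and the labels also leave out the strain, sex, age, dose, route and day. The vehicle that controls received is unnamed, so where controls are compared, bleomycin and an unlike vehicle cannot be told apart. The labels do not say whether the lungs were perfused to remove blood. Each library was taken as 1 mouse, although the labels state no more than separate samples, and p-values then reflect the spread among these samples alone.

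Red blood cells carry oxygen on haemoglobin, a tetramer of alpha and beta globin chains that each hold a haem group. Mature mammalian red blood cells have no nucleus, and their RNA is what young cells, the reticulocytes, have not yet lost. Platelets also lack a nucleus and keep RNA from the megakaryocytes that shed them, which in mice are found in the lung as well as in bone marrow. In lung tissue these transcripts are commonly taken as markers of blood and of megakaryocytes. In whole-lobe RNA, fewer cells of a type and less RNA per cell cannot be told apart, and this holds for every value given here.

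Of the 10 genes, 9 had counts in all 43 libraries and passed the filter on low counts, and Gp1bb had 0 counts in each of them. By the GENCODE annotation of the GRCm38 build, Hba-a1 lies at chr11:32283511-32284465 and Hba-a2 at chr11:32296489-32297298, both on the plus strand, in the alpha globin cluster. Hbb-bs lies at chr7:103826534-103828096 and Hbb-bt at chr7:103812524-103813996 in the beta globin cluster, both on the minus strand. Alas2 is at chrX:150547375-150570638 on the plus strand and Slc4a1 at chr11:102348824-102366203 on the minus strand. Ppbp, at chr5:90768518-90770063, and Pf4, at chr5:90772435-90773383, are neighbours on the plus strand. Gp9 is at chr6:87778072-87779768 on the plus strand and Gp1bb at chr16:18620317-18622403 on the minus strand.

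The paired globin copies limit what the counts can say, because a read of 75 bases often matches both copies. The coding sequences of Hba-a1 and Hba-a2 have 429 bases each and differ at 1 base, C381T. Those of Hbb-bs and Hbb-bt have 444 bases each and differ at 1 base, C417T. Positions are counted from 1 at the A of the start codon, and the first named gene's base comes first. The stretches around these bases are shown because they hold the sole coding difference between the copies, in capitals, as read from the GRCm38 reference 5′ to 3′ on the coding strand. They span coding positions 351 to 410 of the alpha globins and 385 to 444 of the beta globins.
Hba-a1: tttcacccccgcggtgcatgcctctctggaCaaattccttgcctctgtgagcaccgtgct
Hba-a2: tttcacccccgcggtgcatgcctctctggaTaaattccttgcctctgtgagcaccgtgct
Hbb-bs: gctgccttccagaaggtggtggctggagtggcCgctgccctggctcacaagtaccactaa
Hbb-bt: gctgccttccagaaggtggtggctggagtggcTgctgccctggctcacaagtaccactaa

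Of the 75-base windows along the main transcript, 62.2% of those of Hba-a1 and 81.0% of those of Hba-a2 occurred in the other copy. For Hbb-bs and Hbb-bt the shares were 64.3% and 56.6%. None of these windows occurred in a transcript of any other gene. The sources used here do not give how reads that match both copies were counted. The level of 1 copy is therefore uncertain, and the sum of each pair is given as well. If reads that match both copies were left out of the counts, the sums and the globin share of a library are too low too.

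Library depth ran from 13138281 to 19111457 counts. The 4 adult globins together took from 0.0496% to 0.320% of a library's counts, with a median of 0.127%. A gene was called when edgeR's quasi-likelihood test over all 14836 tested genes gave a p-value under 0.05 after Benjamini-Hochberg adjustment. Levels are CPM, that is counts relative to library size after TMM scaling. Differences are log2 fold changes ± SE from the fit. The library names fall into 3 number series, A, B and C, of 33, 4 and 6 libraries, whose meaning the labels do not state. Fat transcripts were unevenly spread, since at least 1 CPM of Adipoq, the adipocyte hormone adiponectin, was found in 8 of 10 control, 0 of 16 vehicle and 5 of 17 nintedanib libraries.

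Per kilobase of exon, the median level over the 43 libraries was 772 CPM for Hbb-bs, 679 for Hba-a1, 178 for Hbb-bt and 96.0 for Hba-a2. Alas2, Ppbp and Pf4 followed at 17.2, 15.6 and 14.6 CPM per kilobase, Gp9 at 2.64 and Slc4a1 at 0.825. The ranges of Hbb-bs and Hba-a1 overlapped within every group, as did those of Hbb-bt and Hba-a2 and those of Alas2, Ppbp and Pf4. The ranges of Hba-a1 and Hba-a2 on this scale did not overlap in control or nintedanib libraries and did overlap in vehicle libraries. Those of Gp9 and Slc4a1 were apart in control libraries and overlapped in both bleomycin groups.

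Against control lungs, 9 of the 9 tested genes fell in the lungs of bleomycin mice given vehicle, beside 28.3% of all tested genes that fell, 29.5% that rose and 57.9% that changed in either direction. Their log2 fold changes ran from -1.57 for Gp9 to -0.39 for Pf4, with a median of -1.18, where the median of all tested genes was -0.01. In bleomycin mice given nintedanib, 6 of the 9 genes were higher than in bleomycin mice given vehicle and none was lower, beside 3.21% of all tested genes that were higher, 4.1% that were lower and 7.31% that changed. These log2 fold changes ran from 0.21 to 1.04 with a median of 0.58. Against control lungs, the nintedanib lungs were lower for 6 of the 9 genes, beside 25.1% of all tested genes that were lower, 28.1% that were higher and 53.2% that changed, with a median of -0.62. The vehicle libraries enter the first and the second comparison, and the control libraries the first and the third, so that the comparisons are not independent of each other. With counts scaled by library totals alone, all tested genes gave 369 higher and 813 lower calls with nintedanib against vehicle in place of 476 and 608, and 3250 and 4844 against control in place of 4171 and 3717. The count of 6 with nintedanib fell to 1 called gene, Hbb-bt, when the 13 libraries with Adipoq were left out, and to 2 when the fit held only the vehicle and nintedanib libraries. The share of all tested genes called higher fell as well, from 3.21% to 1.62% and 1.76% in these 2 settings. Without vehicle replicate 4 the count was 2, and it was 3 without vehicle replicate 6, vehicle replicate 8, vehicle replicate 9 or nintedanib replicate 7. For these fits without 1 library, the shares of all tested genes are not given here.

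**Figure D1:**
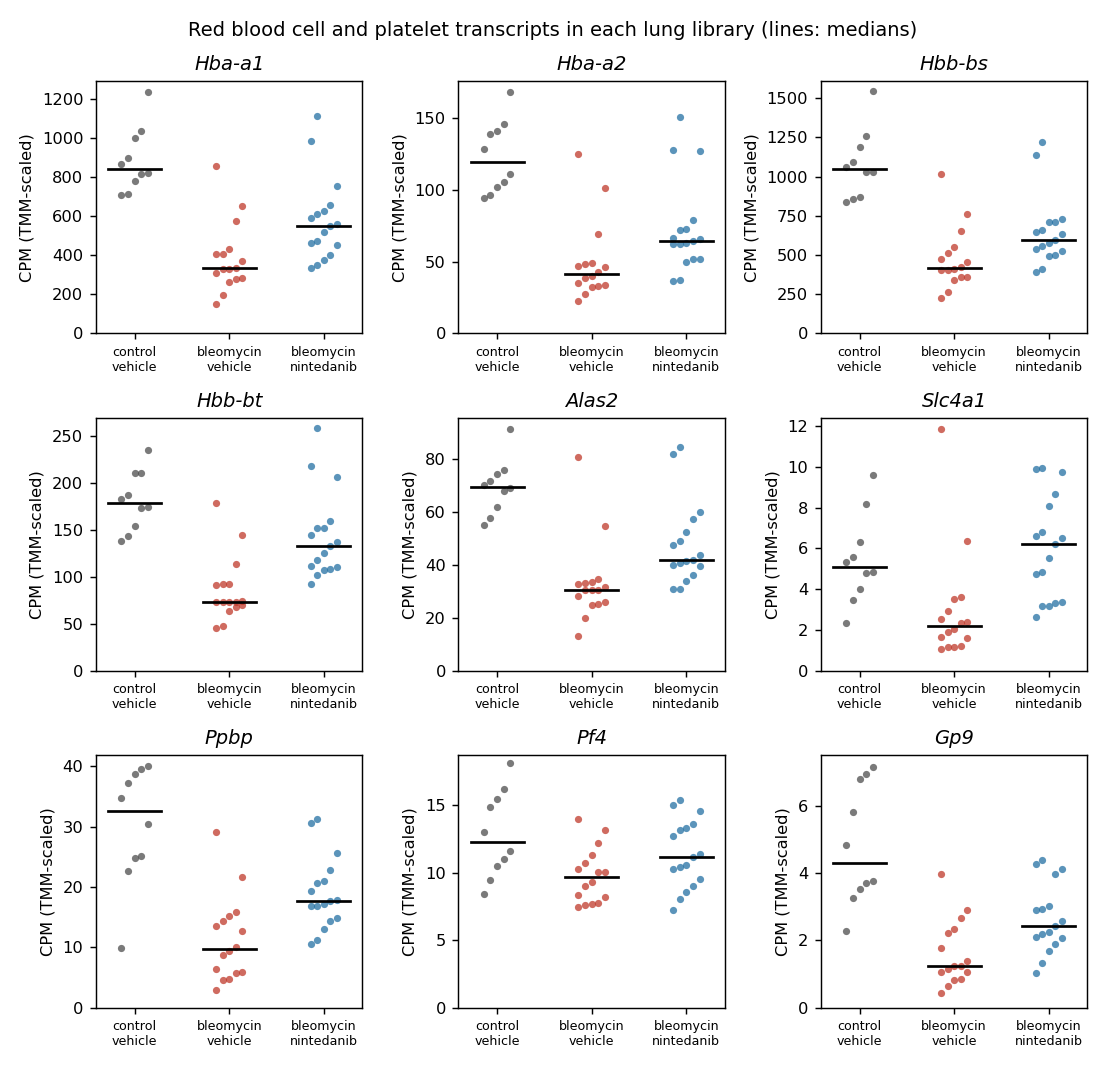
Level of each of the 9 detected genes in every library. Each panel is 1 gene, the y axis is CPM scaled by TMM factors on a linear axis from 0, each point is 1 library, and lines are group medians (control vehicle n = 10, bleomycin vehicle n = 16, bleomycin nintedanib n = 17). The vehicle median lies below the control median in each panel, the nintedanib median lies above the vehicle median, and 1 vehicle library, replicate 13, stands at the top of its group for 8 of the 9 genes.

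The alpha globins give the haemoglobin alpha chain. Hba-a1 had 709, 844 and 1238 CPM (lowest, median and highest) in control libraries, 152, 333 and 858 in vehicle libraries and 337, 551 and 1112 in nintedanib libraries. Of the vehicle libraries, 15 of 16 lay below every control library, while vehicle replicate 13 lay inside the control range. Every nintedanib library lay above the vehicle median, and 2 of 17 lay above the highest vehicle library. Hba-a1 was 2.29-fold lower in vehicle than in control lungs, with a log2 fold change of -1.20 ± 0.19 and an adjusted p of 1.48e-06. It was 1.49-fold higher with nintedanib than with vehicle, at 0.58 ± 0.17 on the log2 scale and an adjusted p of 0.0312. It stayed below control in the nintedanib group, with -0.62 ± 0.19 and an adjusted p of 0.0063.

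Hba-a2, the copy with fewer deposited counts, had 94.4, 119 and 168 CPM in control, 22.3, 41.4 and 125 in vehicle and 36.7, 64.0 and 150 in nintedanib libraries. The vehicle libraries lay mostly below the control range, with 14 of 16 under the lowest control library, and the nintedanib group overlapped both others. Its fall against control was 2.49-fold, with a log2 fold change of -1.32 ± 0.22 and an adjusted p of 2.36e-06. The difference of nintedanib from vehicle was 0.56 ± 0.19, much the same size as for Hba-a1, but its adjusted p was 0.0659. Summed, the alpha globins fell by 1.21 on the log2 scale in vehicle against control lungs (adjusted p 1.25e-06). The sum was 0.58 higher with nintedanib than with vehicle (adjusted p 0.0320).

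The adult beta globins give the beta chain. Hbb-bs, with the highest median of deposited counts of the 10 genes, had 836, 1047 and 1543 CPM in control, 224, 418 and 1016 in vehicle and 394, 593 and 1222 in nintedanib libraries. All 16 vehicle libraries lay below the control median and 15 lay below every control library. The fall was 2.26-fold, with a log2 fold change of -1.18 ± 0.18 and an adjusted p of 3.53e-07. With nintedanib, 15 of 17 libraries lay above the vehicle median, and the difference of 0.45 ± 0.16 did not pass the test (adjusted p 0.0681). The difference of nintedanib from control was -0.73 ± 0.17 (adjusted p 0.00051).

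Hbb-bt, the second adult beta globin, had 138, 179 and 235 CPM in control, 45.6, 73.3 and 179 in vehicle and 92.2, 132 and 258 in nintedanib libraries. Here 14 of 16 vehicle libraries were below every control library, and all 17 nintedanib libraries were above the vehicle median. The fall against control was 2.11-fold, at -1.08 ± 0.17 on the log2 scale with an adjusted p of 6.81e-07. With nintedanib Hbb-bt was 1.67-fold higher than with vehicle, at 0.74 ± 0.15 and an adjusted p of 0.0020, the smallest among the 9 genes. The nintedanib group did not pass the test against control, with -0.34 ± 0.17 and an adjusted p of 0.0821. Summed, the beta globins fell by 1.16 in vehicle against control lungs (adjusted p 3.41e-07) and were 0.49 higher with nintedanib than with vehicle (adjusted p 0.0395).

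Alas2 is the erythroid form of 5-aminolevulinate synthase, the first enzyme of haem synthesis. It had 55.1, 69.5 and 91.4 CPM in control, 12.9, 30.4 and 80.8 in vehicle and 30.8, 41.7 and 84.3 in nintedanib libraries. Of the vehicle libraries, 15 of 16 lay below every control library, and every nintedanib library lay above the vehicle median. Alas2 was 2.10-fold lower in vehicle than in control lungs (-1.07 ± 0.18, adjusted p 2.20e-06) and 1.44-fold higher with nintedanib than with vehicle (0.53 ± 0.16, adjusted p 0.0325). Against control the nintedanib group was at -0.54 ± 0.17 (adjusted p 0.0083). Exons of Apex2 on the opposite strand overlap 12.9% of the exon bases of Alas2. Apex2 had 58 to 134 counts per library and Alas2 213 to 1512, and whether the counting used strand is not given in the sources.

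Slc4a1 encodes band 3, the chloride and bicarbonate exchanger of the red blood cell membrane, and in the kidney a shorter form serves acid secretion. It had 2.33, 5.09 and 9.61 CPM in control, 1.05, 2.19 and 11.9 in vehicle and 2.65, 6.24 and 9.96 in nintedanib libraries. Vehicle replicate 13 held the highest value of all 43 libraries, while 9 of the other vehicle libraries lay below every control library. The fall against control was 1.84-fold (-0.88 ± 0.30, adjusted p 0.0120), the least precise of the 9. Every nintedanib library was above the vehicle median, and the nintedanib group was 2.05-fold higher than vehicle (1.04 ± 0.27, adjusted p 0.0148). Nintedanib and control lungs did not differ past the threshold, with 0.16 ± 0.30 and an adjusted p of 0.683, and 10 of 17 nintedanib libraries lay above the control median. The fall of Slc4a1 in vehicle lungs missed the threshold when 2 surrogate variables were fitted (-0.49, adjusted p 0.209) and without the libraries with Adipoq (-0.91, adjusted p 0.267).

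Among the platelet genes, Ppbp encodes the chemokine precursor that gives CXCL7 and is stored in platelet alpha granules. Its levels were 9.98, 32.6 and 39.99 CPM in control, 2.998, 9.72 and 29.1 in vehicle and 10.5, 17.8 and 31.3 in nintedanib libraries. All 16 vehicle libraries were below the control median, all 17 nintedanib libraries were above the vehicle median, and all 17 were below the control median. Control replicate 2, at 9.98 CPM, stood far below the other control libraries. Ppbp was 2.68-fold lower in vehicle than in control lungs (-1.42 ± 0.25, adjusted p 4.82e-06) and 1.67-fold higher with nintedanib than with vehicle (0.74 ± 0.22, adjusted p 0.0321). The nintedanib group remained lower than control (-0.68 ± 0.24, adjusted p 0.0164). Without the libraries with Adipoq, the fall in vehicle lungs missed the threshold (-1.10, adjusted p 0.0925), as did the difference of nintedanib from control (-0.43, adjusted p 0.589). The latter also missed it with 2 surrogate variables (-0.35, adjusted p 0.117).

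Gp9 encodes glycoprotein IX, a part of the platelet receptor for von Willebrand factor. It had 2.28, 4.30 and 7.15 CPM in control, 0.447, 1.24 and 3.95 in vehicle and 1.03, 2.44 and 4.38 in nintedanib libraries. The counts behind these values were low, from 7 to 123 per library, and 12 of 16 vehicle libraries lay below every control library. Gp9 was 2.98-fold lower in vehicle than in control lungs (-1.57 ± 0.25, adjusted p 1.34e-06). With nintedanib it was 1.65-fold higher than with vehicle (0.72 ± 0.23, adjusted p 0.0455), with 16 of 17 libraries above the vehicle median. That call lay close to the threshold, and it was made in 18 of the 43 fits that left out 1 library each. The nintedanib group was lower than control (-0.85 ± 0.25, adjusted p 0.0033), a call that was lost without the libraries with Adipoq (-0.89, adjusted p 0.197).

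Pf4 encodes platelet factor 4, the chemokine CXCL4, and in mice is also found in some tissue macrophages. It moved least of the platelet genes, with 8.44, 12.3 and 18.1 CPM in control, 7.50, 9.68 and 13.9 in vehicle and 7.22, 11.1 and 15.4 in nintedanib libraries. The 3 groups overlapped over most of their ranges. Pf4 was 1.31-fold lower in vehicle than in control lungs (-0.39 ± 0.13, adjusted p 0.0077). The difference of nintedanib from vehicle was 0.21 ± 0.11 (adjusted p 0.222), and that from control was -0.18 ± 0.12 (adjusted p 0.236). The fall against control missed the threshold without the libraries with Adipoq (-0.32, adjusted p 0.321) and with 2 surrogate variables (-0.28, adjusted p 0.0676).

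Gp1bb encodes the beta subunit of glycoprotein Ib, the partner of glycoprotein IX in the same receptor, and it was listed at 0 in all libraries. In the annotation, 91.1% of its exon bases lie within exons of Sept5 on the same strand and 41.5% within exons of Gm49601. Sept5 had from 9 to 43 counts per library and Gm49601 from 3 to 20. No level can be given for Gp1bb, since reads from its exons may have been given to these genes or to none.

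**Figure D2:**
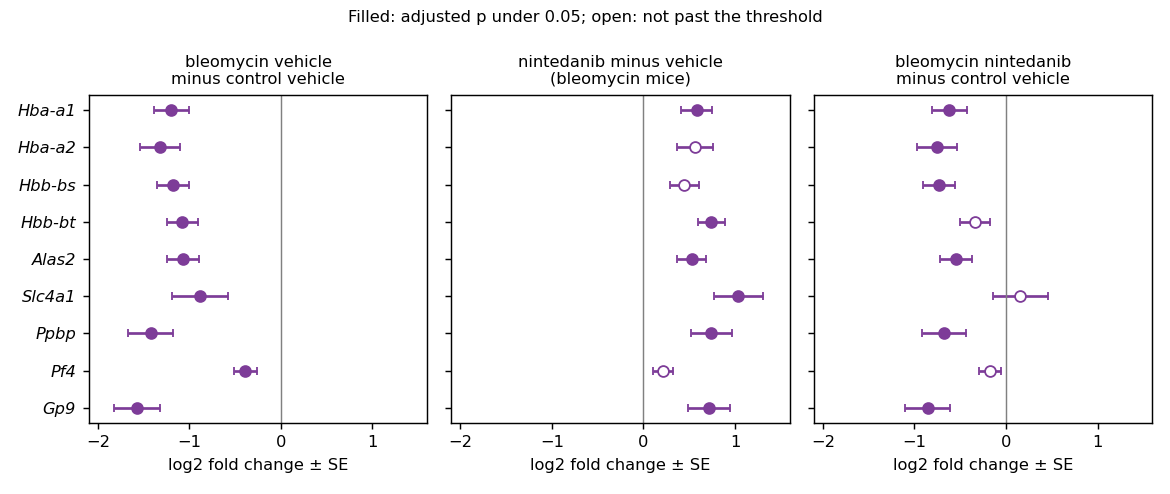
Log2 fold change of each detected gene in the 3 comparisons. The x axes are log2 fold changes, points are estimates from edgeR's fit over 43 libraries, bars are ± 1 SE, and filled points passed an adjusted p of 0.05. All 9 genes lie left of 0 for vehicle against control and right of 0 for nintedanib against vehicle, where 6 points are filled. For nintedanib against control, Slc4a1 alone lies to the right of 0.

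The genes did not keep fixed proportions to each other. Ratios between genes within a library do not depend on library size, and 24 differences in such ratios were tested by permutation (two-sided, 100000 resamples), with p-values adjusted over the 24. The ratios were chosen after the first results of these data had been seen. Those of Alas2, Slc4a1, Hba-a1, Hbb-bt and Ppbp were all taken against Hbb-bs. They share its counts, which depend on how reads of both copies were counted, and are not independent of each other. Hbb-bt made up 13.2%, 14.5% and 15.1% (lowest, median and highest) of the adult beta globin counts in control libraries, 13.8%, 15.2% and 16.9% in vehicle libraries and 15.1%, 17.9% and 22.6% in nintedanib libraries. The control and nintedanib libraries did not overlap in this share, by a narrow margin, and the vehicle libraries lay between them and overlapped both. On the log2 scale the ratio of Hbb-bt to Hbb-bs was 0.29 higher with nintedanib than with vehicle and 0.39 higher than in control lungs. Both permutation tests gave an adjusted p of 0.00012, from 1e-05, the smallest p that 100000 resamples can give. Vehicle against control lungs differed by 0.10 (permutation test, adjusted p 0.0180). As the copies share much of their sequence, these shares describe the deposited counts and not the exact proportion of the transcripts.

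Hba-a2 took a median of 11.9% of the alpha globin counts in control, 10.4% in vehicle and 10.6% in nintedanib libraries, and none of the 3 differences passed the test in all libraries. In number series A the ratio of Hba-a2 to Hba-a1 was lower in nintedanib than in control lungs, at -0.20 (permutation test, adjusted p 0.0227). The share of Hba-a2 reached 18.7% in vehicle replicate 3, 17.8% in vehicle replicate 10 and 16.7% in nintedanib replicate 14. The ratio of Slc4a1 to Hbb-bs was 0.77 higher on the log2 scale with nintedanib than with vehicle (permutation test, adjusted p 0.0064) and 0.91 higher than in control (permutation test, adjusted p 0.0041). Between vehicle and control it differed by 0.13 (permutation test, adjusted p 0.620). The band 3 transcript was thus higher relative to Hbb-bs in nintedanib lungs than in either other group.

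Hba-a1 against Hbb-bs was 0.15 higher with nintedanib than with vehicle (permutation test, adjusted p 0.0041). Alas2 against Hbb-bs was 0.18 higher with nintedanib than in control (permutation test, adjusted p 0.0221) and 0.10 higher than with vehicle (permutation test, adjusted p 0.204). Among platelet genes, the ratio of Pf4 to Ppbp was 1.20 higher in vehicle than in control lungs (permutation test, adjusted p 0.0019) and lower with nintedanib than with vehicle, at -0.72 (permutation test, adjusted p 0.0116). Nintedanib lungs were 0.48 above control (permutation test, adjusted p 0.0384). Gp9 against Ppbp passed the test in no comparison, with differences from -0.21 to -0.10. In the set of libraries without Adipoq, the ratio differences of nintedanib from vehicle kept their calls, while those of nintedanib from control missed the threshold for Hbb-bt (0.49, permutation test, adjusted p 0.0504), Slc4a1 (1.16, adjusted p 0.117) and Alas2 (0.32, adjusted p 0.191), each against Hbb-bs. There Pf4 against Ppbp gave 0.77 for vehicle against control (permutation test, adjusted p 0.366) and 0.01 for nintedanib against control (adjusted p 1.0). Hbb-bt against Hbb-bs gave 0.14 for vehicle against control (adjusted p 0.195). The control group of that set held 2 libraries, which allow few rearrangements. The permutation test could therefore not give small p-values against control, and a missed threshold there decides nothing. Ppbp against Hbb-bs passed in no comparison, and its largest difference in all libraries was 0.45 for nintedanib against vehicle (permutation test, adjusted p 0.0712).

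**Figure D3:**
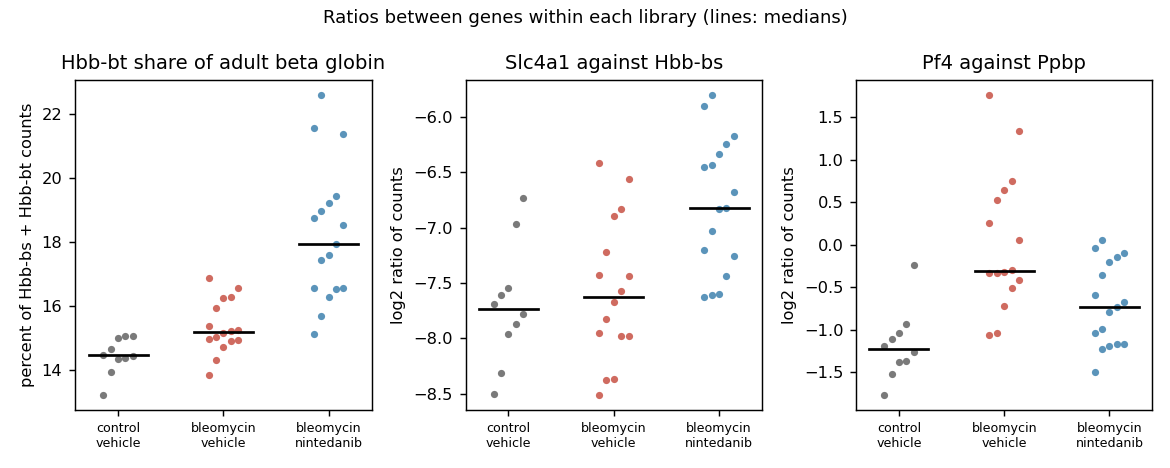
Ratios between genes within each library. The left y axis is the percentage of adult beta globin counts assigned to Hbb-bt, the middle and right y axes are log2 ratios of counts, points are libraries and lines are medians. In the left panel the control libraries end at 15.1%, where the nintedanib libraries begin, and these reach 22.6%.

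Within groups, the red blood cell genes followed each other more closely in the median pair than they followed the platelet genes, with ranges that overlapped. After group means were subtracted, Pearson's r over the 43 libraries ranged from 0.46 to 0.98 for the 15 pairs of red blood cell genes, with a median of 0.86. For the 3 pairs of platelet genes it ranged from 0.37 to 0.85, and for the 18 mixed pairs from 0.25 to 0.61, with a median of 0.46. These values are descriptions, since all genes of a library share its tissue piece and depth, and globin copies share reads. The r of Slc4a1 with the other red blood cell genes ran from 0.46 for Hba-a2 to 0.72 for Hbb-bt. Ppbp and Gp9 gave the 0.85, while Pf4 reached 0.42 with Ppbp and 0.37 with Gp9.

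Of 9 correlations tested within single groups, Slc4a1 with Hbb-bt gave r = 0.81 and rho = 0.58 in vehicle libraries (permutation test, adjusted p 0.0022 and 0.0609) and r = 0.67 and rho = 0.69 in nintedanib libraries (permutation test, adjusted p 0.0130 and 0.0276). Without the 2 libraries farthest from the median of Slc4a1, r was 0.49 in vehicle and 0.62 in nintedanib libraries, so the value in vehicle libraries rested partly on those 2. Within number series A alone, all 9 correlations were recomputed, and the one that changed sign is given with the other dependences on processing. In control libraries Slc4a1 with Hbb-bt gave r = 0.48 and rho = 0.43 (permutation test, adjusted p 0.246 and 0.284).

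Ppbp with Pf4 gave r = 0.76 and rho = 0.73 in control libraries (permutation test, adjusted p 0.0132 and 0.0609), and 0.62 without the 2 farthest. In vehicle libraries r was 0.43 and rho 0.34 (permutation test, adjusted p 0.169 and 0.284), and in nintedanib libraries 0.22 and 0.13 (permutation test, adjusted p 0.516 and 0.704). The relation of Slc4a1 with Ppbp did not pass the test in any group, at r = 0.23, 0.50 and -0.03 in control, vehicle and nintedanib libraries (permutation test, adjusted p 0.567, 0.110 and 0.895).

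**Figure D4:**
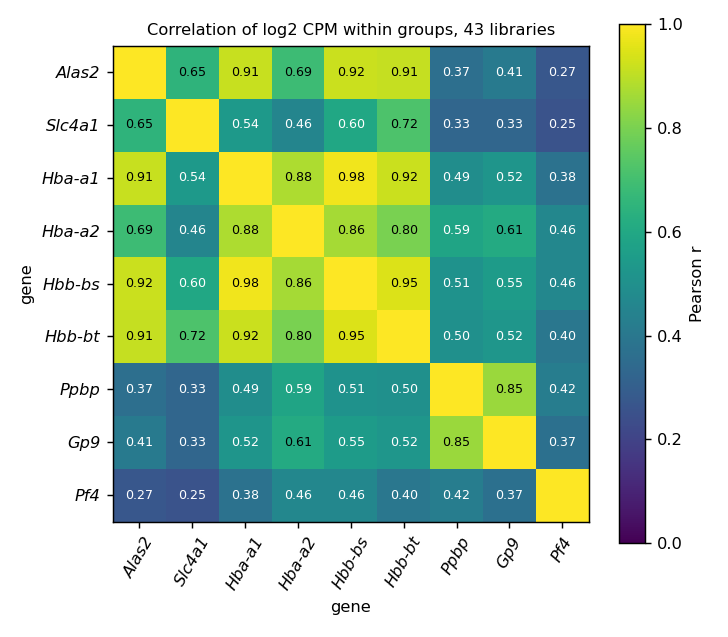
Pearson's r between the log2 CPM of each pair of detected genes over 43 libraries after subtraction of group means. Rows and columns are genes, and colour and printed values are r on a scale from 0 to 1. The block of red blood cell genes holds values from 0.46 to 0.98, and the mixed block values from 0.25 to 0.61.

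Single libraries stood out in the same way for many of the genes. Vehicle replicate 13 was the highest vehicle library for 8 of the 9 genes, and for Hba-a2 it was vehicle replicate 10. The lowest vehicle library was replicate 3 for 4 genes and replicate 4 for 3 genes. The highest Slc4a1 level in the vehicle group was 11.3 times the lowest. In control libraries that ratio was 4.13 for Slc4a1 and between 1.66 and 4.01 for the others. For Pf4 it was 1.86 in vehicle, 2.15 in control and 2.13 in nintedanib libraries. Without vehicle replicate 13, all 9 genes were lower in vehicle than in control lungs. In that fit 8 of 9 were higher with nintedanib than with vehicle, and Slc4a1 differed by 1.37 (adjusted p 0.00021). How many of all tested genes were called in that fit is not given here, so its counts are no result about these genes alone. In nintedanib libraries the highest level belonged to replicate 7 for 4 genes, among them Slc4a1, Alas2 and Hbb-bt, and the lowest to replicate 17 for 4 genes.

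Within number series A alone (9 control, 11 vehicle and 13 nintedanib libraries), all 9 genes were lower in vehicle than in control lungs, with a median log2 fold change of -1.29. In the same series 5 of 9 were higher with nintedanib than with vehicle, with a median of 0.69. These were Alas2, Slc4a1, Hba-a1, Hbb-bs and Hbb-bt, while Ppbp (0.69, adjusted p 0.0661) and Gp9 (0.67, adjusted p 0.0992) missed the threshold. In that series 6 of 9 were lower in nintedanib than in control lungs, with a median of -0.63. Of all 14748 genes tested in the series, 24.9% were lower in vehicle than in control, 3.4% were higher with nintedanib than with vehicle and 23.8% were lower in nintedanib than in control. Series B had no control library, and C had 1 control, 3 vehicle and 2 nintedanib libraries, too few for values of their own.

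The nintedanib libraries with Adipoq also held more of most of these transcripts. Hba-a1 had a median of 753 CPM in the 5 nintedanib libraries with at least 1 CPM of Adipoq and 497 CPM in the other 12. For Hba-a2 these medians were 127 and 62.6 CPM, for Slc4a1 6.50 and 4.79, for Pf4 13.3 and 10.3 and for Ppbp 17.8 and 17.5. In control libraries the order was the other way for Hba-a1, with 817 CPM in the 8 with Adipoq and 1035 and 1238 CPM in the 2 without. Without all libraries with Adipoq, every one of the 9 estimates kept its sign in vehicle against control and in nintedanib against vehicle. The counts of called genes were then 6 of 9 lower in vehicle than in control, 1 of 9 higher with nintedanib than with vehicle, and 4 of 9 lower in nintedanib than in control. Of all 15276 genes tested in that set, 10.5% were lower in vehicle than in control, 1.62% were higher with nintedanib than with vehicle and 9.8% were lower in nintedanib than in control. With nintedanib against vehicle, the difference was 0.92 for Slc4a1, 0.67 for Ppbp and 0.61 for Gp9 in that set, close to that in all libraries. It was 0.38 for Alas2 and, less by over 1.5 times than in all libraries, 0.36 for Hba-a1, 0.26 for Hba-a2 and 0.23 for Hbb-bs. The control group then held 2 libraries and the nintedanib group 12. The part of fat tissue in these results was not tested further.

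Other genes known as markers of these cells were taken from lists. Which cells of the lobe made the genes of these and the later lists was not tested. Their counts in the fit of all libraries stand beside 28.3% of all tested genes lower and 29.5% higher in vehicle against control lungs. For nintedanib against vehicle these shares were 4.1% and 3.21%, and for nintedanib against control 25.1% and 28.1%. Of 37 further erythroid genes, 36 were in the table and 22 were tested. Among these, 16 fell and none rose in vehicle against control lungs, with a median log2 fold change of -0.50. Those with the smallest p were -1.33 ± 0.21 for Sptb, the beta spectrin (adjusted p 1.21e-06), -1.22 ± 0.17 for Tmcc2 (adjusted p 7.58e-08), -0.61 ± 0.08 for Tal1 (adjusted p 6.33e-08) and -0.56 ± 0.09 for Dmtn, the actin-bundling dematin (adjusted p 7.76e-07). Tal1, a transcription factor of blood progenitors, is also made by endothelial cells. Tmcc2 had a median of 267 CPM in control libraries, above the 69.5 CPM of Alas2.

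With nintedanib, 3 of the 22 were higher than with vehicle and none lower, with a median of 0.08. Among them was Isg20, an exonuclease (0.17 ± 0.05, adjusted p 0.0259), with median levels of 36.99, 34.4 and 39.2 CPM in control, vehicle and nintedanib libraries. Trim10 had a difference of 0.82 ± 0.28 and was above the vehicle median in 17 of 17 nintedanib libraries, but its adjusted p was 0.0628. In nintedanib against control, 14 of the 22 were lower and none higher. Without the libraries with Adipoq, 7 of 23 tested genes fell and none rose in vehicle against control lungs, and 0 passed edgeR's test with nintedanib, where 5 had an unadjusted p under 0.05. DESeq2 on all libraries called 4 of the 22 higher with nintedanib. The embryonic globins were all but absent, since Hbb-y and Hbb-bh1 reached at most 2 counts in a library and Hba-x had 0.

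Among 8 enzymes of haem synthesis that are used by all cells, 3 rose in vehicle against control lungs, among them Uros (0.29 ± 0.07, adjusted p 0.00033) and Cpox (0.26 ± 0.08, adjusted p 0.0032), and none fell in edgeR's test. Fech was at -0.12 ± 0.06 (adjusted p 0.0615) and Alad at -0.12 ± 0.06 (adjusted p 0.0744) there, 5 of the 8 had an unadjusted p under 0.05, and 1 was called lower by DESeq2 and 1 in number series A. With nintedanib against vehicle none passed edgeR's test or DESeq2's, and Fech, the last enzyme of the pathway, came nearest at 0.14 ± 0.05 (adjusted p 0.0747). Among these 8 genes 2 had an unadjusted p under 0.05 there, those of Fech (0.0075) and Ppox (0.0287), and in number series A 1 was called higher and 1 lower.

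Of 19 genes that clear haemoglobin and haem or handle iron, 14 rose and 1 fell in vehicle against control lungs, with a median of 0.47. Biliverdin reductase Blvra rose by 0.80 ± 0.09 (adjusted p 3.82e-10), the ferritin light chain Ftl1 by 0.92 ± 0.11 (adjusted p 5.52e-09) and the phagosomal metal transporter Slc11a1 by 1.03 ± 0.14 (adjusted p 8.39e-08). Hamp, the iron hormone hepcidin, fell from a median of 1.66 CPM in control to 0.0617 CPM in vehicle libraries (-4.00 ± 0.57, adjusted p 1.30e-07). With nintedanib against vehicle Blvra alone passed the test, at -0.24 ± 0.07 (adjusted p 0.0310). Cd163, the haemoglobin scavenger receptor of macrophages, differed by 0.50 ± 0.18 there (adjusted p 0.0745).

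Of 28 further platelet and megakaryocyte genes, 26 were tested, and in vehicle against control lungs 16 fell and 4 rose, with a median of -0.79. Itga2b, the integrin alpha IIb of platelets, fell by 1.18 on the log2 scale (adjusted p 9.78e-07), Treml1 by 1.14 (adjusted p 2.78e-06) and Nrgn by 1.12 (adjusted p 8.29e-07). Plek, which leukocytes also make, rose by 0.78 ± 0.12 (adjusted p 1.10e-06). With nintedanib against vehicle none of the 26 passed edgeR's test, with a median of 0.18. The nearest were F5, coagulation factor V (0.69 ± 0.24, adjusted p 0.0704), Plek (-0.28 ± 0.10, adjusted p 0.0893) and Tubb1, the platelet beta-tubulin (0.59 ± 0.23, adjusted p 0.0983). F5 and Tubb1 were above the vehicle median in 16 of 17 nintedanib libraries each. At an unadjusted p under 0.05 there were 5 of 26, and DESeq2 called 1. Without the libraries with Adipoq, 6 of 28 tested platelet genes fell and 2 rose in vehicle against control lungs, and none was called with nintedanib, where 1 had an unadjusted p under 0.05.

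**Figure D5:**
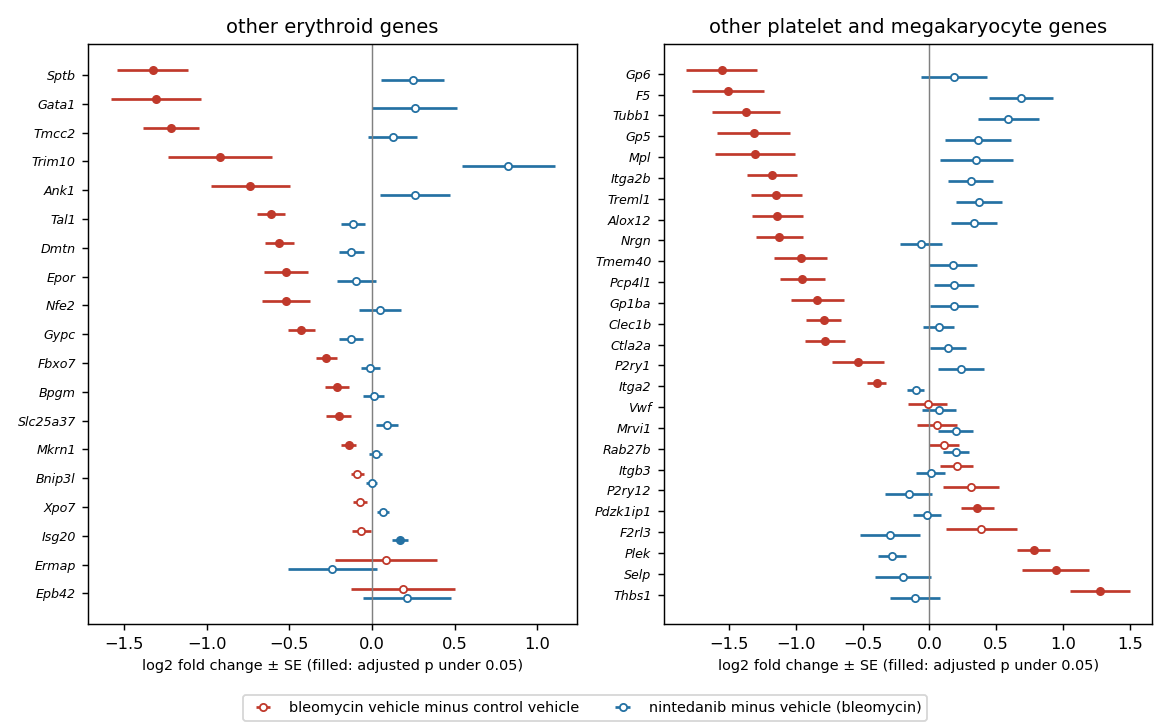
Log2 fold changes ± SE of 19 tested erythroid genes (left) and 26 platelet and megakaryocyte genes (right) other than the 10 described. Red is bleomycin vehicle minus control vehicle, blue is nintedanib minus vehicle in bleomycin mice, and filled points passed an adjusted p of 0.05. Of the genes drawn, 14 of 19 and 16 of 26 fell in red, and 1 and 0 were called in blue.

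Other blood cells did not move as 1 group. Neutrophil genes (10 tested) gave 4 lower and 1 higher in vehicle against control lungs, and 4 higher and 0 lower with nintedanib against vehicle, namely S100a9 (1.30 ± 0.34), Csf3r (0.75 ± 0.20), Mmp9 (0.99 ± 0.27) and S100a8 (0.97 ± 0.28). The summed level of the neutrophil list was 76.4, 165 and 340 CPM in control, 65.4, 105 and 291 in vehicle and 88.4, 138 and 902 in nintedanib libraries. Blood monocyte genes (10 tested) gave 5 lower and 1 higher in vehicle against control, and 2 lower and 0 higher with nintedanib, Plac8 (-0.52 ± 0.11) and Nr4a1 (-0.94 ± 0.27). All 7 B cell genes and 5 of 9 T cell and NK cell genes fell in vehicle against control lungs, and with nintedanib against vehicle none of these 16 passed edgeR's test or DESeq2's, with 0 at an unadjusted p under 0.05. In number series A alone, 6 of the 7 B cell genes and 4 of the 9 T cell and NK cell genes had an unadjusted p under 0.05 there, and 0 were called. In number series A, 1 of the 10 neutrophil genes was called higher with nintedanib. The monocyte, B cell and T and NK cell lists had no gene called higher with nintedanib in the fit of all libraries. Of 5 tested marrow progenitor genes, Cd34 and Flt3 rose and Kit and Myb fell in vehicle against control lungs. With nintedanib against vehicle, Cd34 (-0.25 ± 0.07, adjusted p 0.0161) and Flt3 (-0.57 ± 0.16, adjusted p 0.0241) were lower. Mpo, Elane and Ctsg, made by granulocyte precursors, had at most 16, 7 and 6 counts in a library and were not tested. The 5 tested genes therefore give no level of marrow progenitors, and which cells of the lobe made them was not tested.

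Tissue genes moved beside the blood genes in the same comparisons. Of 10 tested pan-endothelial genes, 8 fell and none rose in vehicle against control lungs, with a median of -0.65, and 2 were lower with nintedanib than with vehicle. Of 7 tested adipocyte genes all fell in vehicle against control and 6 were called higher with nintedanib than with vehicle. Of those called, Adipoq, Car3 and Retn had nintedanib medians above the vehicle medians, and Pck1 had a median of 0 in both groups. The nintedanib medians were below the vehicle medians for Cfd (0.0599 and 0.163 CPM) and Plin1 (0.305 and 0.547 CPM), with 6 of 17 libraries above the vehicle median for each. The summed adipocyte level was 8.87, 227 and 2254 CPM in control, 1.94, 5.18 and 13.6 in vehicle and 2.41, 9.04 and 1078 in nintedanib libraries. Adipoq had a median of 0 in vehicle libraries. All 7 airway mucosa genes fell in vehicle against control and 3 were called higher with nintedanib, Reg3g, Bpifa1 and Bpifb1. The nintedanib medians were below the vehicle medians for Bpifa1 (1.47 and 1.99 CPM) and Bpifb1 (0.663 and 0.721 CPM), with 8 of 17 libraries above the vehicle median for each. Without the libraries with Adipoq, 0 of the 7 were called with nintedanib by edgeR's test, and 0 had an unadjusted p under 0.05. All 7 tested cardiac muscle genes fell in vehicle against control and none passed edgeR's test with nintedanib, where 3 had an unadjusted p under 0.05, DESeq2 called 1 and Actc1 came nearest (0.997 ± 0.33, adjusted p 0.0573). Of 8 alveolar epithelial genes, 2 rose and 1 fell in vehicle against control, and none passed edgeR's test with nintedanib, where 1 had an unadjusted p under 0.05 and DESeq2 called 1. The part of the share of each tissue in the lobe in the results on blood genes was not tested.

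Of 10 macrophage genes that may accompany Pf4, 7 rose and 2 fell in vehicle against control lungs, with a median of 1.24. The complement genes C1qa, C1qb and C1qc rose by 2.32, 2.57 and 2.32 on the log2 scale, against the change of -0.39 in Pf4. With nintedanib against vehicle Lyve1 alone passed (0.57 ± 0.18, adjusted p 0.0470). The summed level of this list was 4294, 5922 and 6901 CPM in control, 2318, 3238 and 5778 in vehicle and 2840, 4390 and 5859 in nintedanib libraries, most of it from Cbr2, which fell to a median of 1801 CPM in vehicle from 4947 CPM in control libraries. That sum thus mostly follows Cbr2 and not the 7 genes that rose, and it is no level of macrophages. Which cells of the lobe made Cbr2 was not tested. The part of macrophages in the smaller change of Pf4 was not tested.

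By the likeness of log2 CPM over the 43 libraries after group means were subtracted, the 10 genes nearest to Slc4a1 included Hbb-bt and Trim10 (r = 0.72 each), Alas2 (0.65), Sptb (0.62), Hbb-bs (0.60), Paqr7 (0.55) and Hba-a1 (0.54). The 10 nearest to Ppbp were Treml1 and Alox12 (0.89 each), Gp9 (0.85), F5 (0.83), Itga2b (0.82), Tubb1 (0.81), Ptgfr (0.80), Gp5 (0.79), Efcab2 and Lrrn3 (0.78 each). Pf4 was not among them. These rankings were made over all tested genes and carry no test.

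Promoters were read because the red blood cell genes moved together while the deposited counts of the beta globin copies shifted against each other. Whether promoter letters bear on that shift was not tested. RefSeq promoter sequences of the GRCm38.p6 assembly were matched for 9 of the 10 genes. The windows hold the 250 bases before the RefSeq start, 5′ to 3′ on the coding strand. Capitals mark any of 4 words on either strand that GATA factors such as GATA1 can bind. The word AGATAA may instead close with G, as the word AGATAG does. Forms that open with T were searched as well, the word TGATAA among them, and also the word TGATAG. At least 1 of these words was in 26.5% of 32851 promoter windows of the same length, so that a match in a single promoter is common. Shown are Alas2 (chrX:150547167-150547416, plus strand), Hba-a1 (chr11:32283422-32283671, plus strand), Hbb-bs (chr7:103827929-103828178, minus strand) and Hbb-bt (chr7:103813924-103814173, minus strand).
Alas2: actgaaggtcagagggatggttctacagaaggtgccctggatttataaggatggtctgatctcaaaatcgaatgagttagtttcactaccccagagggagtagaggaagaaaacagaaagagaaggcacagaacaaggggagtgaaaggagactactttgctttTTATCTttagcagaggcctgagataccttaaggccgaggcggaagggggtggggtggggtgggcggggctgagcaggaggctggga
Hba-a1: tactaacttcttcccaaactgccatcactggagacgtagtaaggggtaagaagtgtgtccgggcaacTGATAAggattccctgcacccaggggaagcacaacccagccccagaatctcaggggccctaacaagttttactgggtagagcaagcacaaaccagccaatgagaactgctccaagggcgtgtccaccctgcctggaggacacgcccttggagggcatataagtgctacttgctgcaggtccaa
Hbb-bs: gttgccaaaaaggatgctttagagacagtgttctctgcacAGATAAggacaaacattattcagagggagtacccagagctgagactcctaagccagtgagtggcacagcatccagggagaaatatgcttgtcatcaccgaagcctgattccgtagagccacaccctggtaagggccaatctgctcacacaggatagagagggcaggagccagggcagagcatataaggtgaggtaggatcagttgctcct
Hbb-bt: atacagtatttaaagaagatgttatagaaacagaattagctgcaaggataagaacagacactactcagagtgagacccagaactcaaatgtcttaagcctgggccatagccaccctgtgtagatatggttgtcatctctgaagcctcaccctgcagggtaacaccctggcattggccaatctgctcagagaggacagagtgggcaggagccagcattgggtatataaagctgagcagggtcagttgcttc

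Distances here are counted from the RefSeq start and not from the GENCODE gene. The GATA words lay 86 bases before the start in Alas2, 183 in Hba-a1 and 210 in Hbb-bs, and the letters were not found in the window of Hbb-bt. Hba-a2 held the same word as Hba-a1, 186 bases before its start, within a run of 247 bases that both alpha globin windows share. Among the platelet genes, Gp1bb held 1 word 22 bases before the start, and Ppbp, Pf4 and Gp9 held none. The word CCACACCC on either strand, a CACCC box of the kind bound by KLF1, was in the window of Hbb-bs and of no other matched gene, and in 3.20% of all windows. Shorter forms were not searched. The letters CACCC also stand in the windows of Hba-a1 and Hbb-bt, and on the other strand in that of Alas2. CCAAT on either strand was in 33.8% of all windows, with 1 match in Hbb-bs, 3 in Hbb-bt, 1 in each alpha globin, 2 in Pf4 and 1 in Gp9. These matches are descriptions of letters in the reference and not of binding in these lungs.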

How the data were processed

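The authors deposited 1 table of whole-number read counts per gene, with 1 column for each of 43 libraries. Per the labels' protocols, RNA of the inferior lobe was made into directional polyA libraries and read as single ends of 75 bases. The submitters' processing notes name the GRCm38 build, R 3.6.0 and STAR 2.7.0f and assign them no role. Not given in the sources used here are the counter, whether it used strand, how it treated reads that match more than 1 gene and which annotation it read. All 21938 gene identifiers matched a symbol.

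The 10 genes, 15 further lists (192 genes, 188 in the table, 165 tested) and the tests were chosen with earlier results of these data known. A low-count filter (edgeR's filterByExpr by group, with a minimum count of 10 and a total of 15) kept 14836 genes, which hold 99.96% of counts. The test was edgeR's two-sided quasi-likelihood F test in 1 robust fit of all 43 libraries by group with TMM scaling, adjusted by Benjamini-Hochberg over all tested genes. The SE is the size of the log2 fold change over the root of F. The median biological coefficient of variation was 13.6%. Log2 CPM used a prior count of 2, and log2 ratios a pseudocount of 0.5. Ratio tests and correlations used 100000 permutations.

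The named genes are the 10 members, of each list up to 4 tested genes with the smallest p in nintedanib against vehicle and up to 4 in vehicle against control, and the 10 genes most like Slc4a1 and like Ppbp by Pearson's r. Some genes that this rule names are not reported here or drawn in the plot of further genes, though list counts include them. Besides these, the embryonic globins, Mpo, Elane, Ctsg, C1qa, Cbr2, Alad and Plin1 were named after their values were seen. Alternatives were other scaling (RLE factors, library totals), no filter on low counts, DESeq2, only the 2 groups compared, number series A alone or series as a covariate, no libraries with at least 1 CPM of Adipoq, 2 surrogate variables, globin rows left out or summed, and each of the 43 libraries left out in turn. The script of the test was checked on simulated counts with known changes. Tools were DESeq2 1.42.0, edgeR 4.0.16, sva 3.50.0 and limma 3.58.1 in R 4.3.3, and SciPy 1.17.1, pandas 2.3.3, Matplotlib 3.10.9 and NumPy 2.4.6 in Python 3.11.15.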

Additional observations from a re-analysis of the deposited data

Results flagged for a closer look

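Ppbp in control libraries had 1 library far from the others, replicate 2, at 3.34 on the log2 CPM scale, which is 9.98 CPM where the group's median was 32.6 CPM. Its gap to the nearest library was more than Dixon's limit allows for 10 samples. The group of 10 was examined for 9 genes, and chance alone marks about 1 in 20. The same library was also the lowest control library for Pf4 and Gp9, and the highest for Alas2. With that library left out, the counts of called genes stayed at 9, 6 and 6 in the 3 comparisons. Shares of all tested genes called in that fit are not given here.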

How the results depend on the processing

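All 9 detected genes were lower in vehicle than in control lungs in each of the 43 fits that left out 1 library. The count of genes higher with nintedanib than with vehicle ranged from 2 to 8 in those fits, and the count of genes lower with nintedanib than in control from 6 to 7. Shares of all tested genes called in those fits are not given here. With nintedanib against vehicle, the count was 2 in a fit of only the 2 groups and 1 without the libraries with Adipoq, in place of 6, and the cause was not tested. Of all tested genes, 1.76% and 1.62% were called higher in these fits, in place of 3.21%. Slc4a1 and Hbb-bt were called in all 43 such fits, Alas2 in 37, Hba-a1 and Ppbp in 38 each, and Gp9 in 18. DESeq2 also called Hba-a2 (adjusted p 0.0495) and Hbb-bs (adjusted p 0.0423). No gene changed direction under any alternative. The correlation of Slc4a1 with Ppbp in nintedanib libraries was 0.49 in number series A (n = 13), of the other sign than in all 17. The log2 ratio of Ppbp to Hbb-bs changed sign for vehicle against control without the libraries with Adipoq (0.56) and for nintedanib against control in number series A (-0.0053), and passed the test in neither. No paired analysis was possible because the labels give the groups no shared replicate numbers. Gp9 and Slc4a1 rest on few counts, down to 7 and 16 in a library, the copies of each globin pair share reads, and the table gives no level for Gp1bb.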
